A study of Mus musculus with 8 samples.

Results

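The cells described here are the Trh-positive, foregut-like endoderm cells of the Tet triple knockout, chosen by 6 genes counted in each cell of 1 single-cell RNA library of day 5. A cell was a member if it held at least 5 UMIs of Trh (unique molecular identifiers, each standing for 1 captured transcript), at least 1 of Epcam, fewer than 3 of Ttr, fewer than 2 of Sox17, fewer than 3 of Pou5f1 and 0 of Gsc, with at most 15% of its UMIs from mitochondrial genes. The gate took 322 of the 3197 knockout cells under the mitochondrial limit, which is 10.1% (95% exact interval 9.05 to 11.2). The whole series holds 7618 cells in its count tables. All intervals given here are exact 95% intervals for counting error only, since each genotype had 1 library and cells of a library are not replicates. No test between groups was possible for that reason, and everything below is a description of these libraries.

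The study asked what the loss of the TET dioxygenases does to mouse embryonic stem cells on their way to heart cells. The cells were the E14-NKX2-5-EmGFP line, obtained from MMRRC, in which a green fluorescent protein reports the cardiac gene Nkx2-5. They were kept on mitomycin C treated mouse embryonic fibroblasts and differentiated after leukemia inhibitory factor was withdrawn, as embryoid bodies that began in hanging drops and were moved to non-adhesive dishes. The groups with single-cell RNA were TKO (Tet triple knockout) at day 5 and WT (wild type) at day 5. Which parts of the Tet genes were removed, and whether TKO cells were 1 clone, is not given in the sources used here. The pull-downs of hydroxymethylated DNA from WT cells were not analysed here.

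Trh encodes the precursor of thyrotropin-releasing hormone, a short peptide best known from the hypothalamus, where it drives the pituitary to release thyrotropin. In the mouse embryo Trh is also transcribed in the definitive endoderm, the germ layer that forms the lining of the gut. The anterior end of that layer becomes the foregut, whose epithelium carries FOXA factors and HHEX and whose pharyngeal pouches are patterned by PAX9, PAX1, EYA1 and TBX1. Ttr marks visceral endoderm and liver, Sox17 the early definitive endoderm, Pou5f1 pluripotent cells and Gsc the anterior mesendoderm, so the gate leaves out cells with more than a few transcripts of these genes.

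The TKO table held 3223 cells and 33602635 UMIs, and the one of WT 4395 cells and 37537946 UMIs. The mitochondrial limit removed 26 TKO cells and 3 WT cells. The members had a median of 10436.5 UMIs (2539 to 30247) and 2898 genes per cell, and the other 2875 kept TKO cells a median of 9629 UMIs and 2839 genes. The median mitochondrial share was 3.87% in members and 4.07% in the other TKO cells. The header of the TKO table names 3224 barcodes although each row holds 3223 values, so cells were taken by position. The headers of the TKO and WT tables share 21 barcode sequences. The doublet caller Scrublet marked only 3 cells in each library and is taken not to have worked, so no cell was removed as a doublet; its median score was 0.062 in members and 0.0536 in the other TKO cells. Of the targeted genes, Tet1 stood at 20.0 CPM in members (counts per 1e6 UMIs, from the summed counts of a set of cells) and 23.1 CPM in the other TKO cells. Tet2 stood at 2.86 CPM in members and 4.80 CPM in the rest, and Tet3 at 22.6 CPM in members and 20.0 CPM in the rest. Tags outside the removed part of a gene check nothing, so these values do not test the TKO label.

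The promoters of the 4 marker genes of the set, Trh, Cpm, Cldn6 and Pax9, are shown because TET enzymes act on methylated cytosines, mostly those followed by guanine. Whether these promoters were methylated was not analysed here. The capitals mark these CpG pairs. Each sequence is 300 bases, from 250 before the RefSeq transcript start to 50 after it on the coding strand, from RefSeq's annotation of mouse build GRCm38.p6; all 4 genes matched 1 entry each.
Trh: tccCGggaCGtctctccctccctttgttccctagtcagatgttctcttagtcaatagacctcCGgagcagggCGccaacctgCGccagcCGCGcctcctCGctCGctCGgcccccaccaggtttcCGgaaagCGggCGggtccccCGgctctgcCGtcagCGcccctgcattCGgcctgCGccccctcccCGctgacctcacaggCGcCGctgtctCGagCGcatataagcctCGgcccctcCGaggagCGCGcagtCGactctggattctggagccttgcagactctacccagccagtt
Cpm: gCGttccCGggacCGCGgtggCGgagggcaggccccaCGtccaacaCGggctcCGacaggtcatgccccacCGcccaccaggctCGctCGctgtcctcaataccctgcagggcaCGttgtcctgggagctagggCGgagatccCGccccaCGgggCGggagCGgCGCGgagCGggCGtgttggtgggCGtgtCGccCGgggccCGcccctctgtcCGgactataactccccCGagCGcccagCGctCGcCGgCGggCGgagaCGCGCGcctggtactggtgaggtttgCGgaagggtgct
Cldn6: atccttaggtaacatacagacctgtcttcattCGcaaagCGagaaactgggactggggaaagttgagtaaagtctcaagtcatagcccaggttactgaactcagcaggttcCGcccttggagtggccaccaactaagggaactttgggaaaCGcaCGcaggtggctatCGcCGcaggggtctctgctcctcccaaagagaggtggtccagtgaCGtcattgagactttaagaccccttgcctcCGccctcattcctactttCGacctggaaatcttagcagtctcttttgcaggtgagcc
Pax9: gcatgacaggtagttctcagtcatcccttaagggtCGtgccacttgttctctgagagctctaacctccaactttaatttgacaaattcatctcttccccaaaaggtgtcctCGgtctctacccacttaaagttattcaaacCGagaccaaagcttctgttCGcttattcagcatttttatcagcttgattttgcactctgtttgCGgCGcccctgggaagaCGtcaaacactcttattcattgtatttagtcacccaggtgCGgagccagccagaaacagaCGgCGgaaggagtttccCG
The Trh promoter lies at chr6:92244601-92244900 on the minus strand, and the gene spans chr6:92242061-92244650. Its 28 CpG pairs compare with a median of 7 over all 32851 promoters of the table, 14.2% of which hold as many or more. The Cpm promoter, at chr10:117629250-117629549 on the plus strand, holds 37, which 5.58% of promoters reach. The Cldn6 promoter (chr17:23679115-23679414, plus strand) holds 10 and the Pax9 promoter (chr12:56695221-56695520, plus strand) 11, counts that 43.5% and 41.4% of promoters reach. The annotated Pax9 gene spans chr12:56691693-56712824, so its window lies inside that span, at the start of the transcript in the table and downstream of the gene's first base. The Trh and Cpm promoters were thus rich in CpG pairs, and those of Cldn6 and Pax9 were closer to the middle of all promoters. The letters TGACCTCA, a variant of the cyclic AMP response element, occur once in the Trh promoter and in 2.17% of all promoters, and the full element TGACGTCA once in that of Cldn6 and in 1.79% of all. Both were searched on both strands and chosen after the sequences had been read. The forkhead core TGTTTAC occurs in none of the 4 windows and in 3.65% of all promoters. A match of letters describes the window and shows no binding.

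Among the members, Trh ranged from 5 to 172 UMIs per cell with a median of 16, and the middle of the distribution ran from 9 to 30.75. The gate removed cells in steps. Of the 3197 TKO cells, 606 held at least 5 UMIs of Trh and 571 of these also held Epcam, the epithelial adhesion molecule. The limit on Sox17 then applied to 156 of the 571 (27.3%, 23.7 to 31.2), that on Gsc to 98 (17.2%, 14.2 to 20.5), that on Ttr to 21 and that on Pou5f1 to 18. A cell could break several limits, and 44 of the 571 (7.71%) broke at least 2. The members therefore held 7977 of the 17719 Trh UMIs of the kept TKO cells (45.0%). Most Trh transcripts lay in cells outside the gate.

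The same gate in the WT library found 1 of 4392 kept cells, which is 0.0228% (0.000576 to 0.127). Before the other limits, 16 WT cells held at least 5 UMIs of Trh, with a highest count of 17, and the 4392 WT cells held 259 Trh UMIs in all. WT cells were shallower, with a median of 7849.5 UMIs, against 9679 in kept TKO cells. With every cell thinned at random to 4000 UMIs and the Trh minimum set to 2, the gate took 11.9% of TKO cells and 0.0498% of WT cells. The unthinned intervals of the TKO and WT shares do not overlap. How far such shares vary between cultures of the same genotype was not tested, because each genotype had 1 library.

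**Figure D1:**
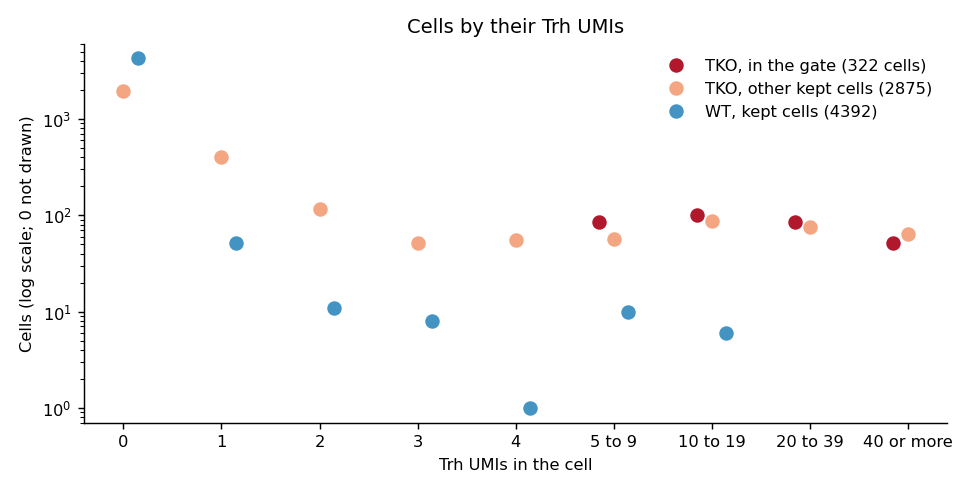
Number of cells (vertical axis, log scale; counts of 0 not drawn) by the Trh UMIs in the cell (horizontal axis), for the 322 gate cells of TKO, the other 2875 kept TKO cells and the 4392 kept WT cells. TKO cells outside the gate reach the same high Trh counts as those inside it, while no WT cell holds more than 17 UMIs.

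Trh outside the gate lay mainly in other Epcam-positive cells with Sox17. The Sox17 gate (191 TKO cells with at least 2 UMIs of Sox17, at least 1 of Epcam and fewer than 3 of Ttr) held 6060 Trh UMIs, 34.2% of the library's total, and 148 of its cells had at least 5. The Gsc gate (150 cells with at least 1 UMI each of Gsc, Otx2 and Epcam, 35 of them also in the Sox17 gate) held 2676, or 15.1%. The Ttr gate (26 cells with at least 10 UMIs of Ttr and at least 1 of Epcam) held 86. Trh stood at 2282 CPM in members, 2506 CPM in the Sox17 gate, 1276 CPM in the Gsc gate and 258 CPM in the Ttr gate. A high Trh count is thus a property of several sets of TKO cells, and the members are those among them with little Sox17, Ttr or Pou5f1 and no Gsc.

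At the threshold the sets ran into each other. The 29 cells with exactly 5 UMIs of Trh that met every other limit had 681 CPM of Cpm, 1042 of Cldn6, 83.4 of Pax9 and 135 of Otx2. The 33 cells with exactly 4, just outside, had 445 CPM of Cpm, 634 of Cldn6, 51.3 of Pax9 and 170 of Otx2. The next counts out did not continue this step, with 394 CPM of Cpm, 679 of Cldn6 and 51.9 of Pax9 in the 21 cells with exactly 6, and 608 of Cpm, 776 of Cldn6 and 101 of Pax9 in the 27 with exactly 3. Cells with 0 Trh UMIs that met all other limits numbered 252, and in them Cpm stood at 246, Cldn6 at 502, Pax9 at 41.1 and Otx2 at 42.6 CPM.

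The 4 markers of the set were all detected in the members, but not in the same share of cells. Cldn6, a claudin of the tight junctions of early embryonic epithelia, had at least 1 UMI in 320 of 322 members (99.4%), with 0 to 57 UMIs per cell and a median of 8. Cpm, which encodes carboxypeptidase M, a membrane enzyme that trims basic residues from the ends of peptides, was counted in 283 members (87.9%), with 0 to 29 UMIs and a median of 5. Pax9, a transcription factor of the pharyngeal endoderm and its pouches, was counted in 140 (43.5%, 38.0 to 49.1), with 0 to 9 UMIs and a median of 0. In the other TKO cells these shares were 36.8% for Cldn6, 31.5% for Cpm and 8.42% for Pax9.

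Shares of cells move with depth, so they were repeated in cells thinned to 4000 UMIs, which 302 members and 2705 other TKO cells reached. Pax9 then had a UMI in 21.9% of members (17.3 to 26.9) and 4.81% of the other TKO cells, Cpm in 73.2% of members and 22.9% of the other TKO cells, and Cldn6 in 91.7% of members and 29.4% of the other TKO cells. In 23 vascular cells of the same library, taken as cells that should lack these genes (at least 3 vascular genes with a UMI and 0 Epcam, median 12412 UMIs), the unthinned shares were 0 of 23 for Pax9 and for Cldn6, which allows up to 13.0%, and 8.70% for Cpm. The gate itself required Trh, and the vascular cells were required to lack Epcam, so the contrast in Trh and in epithelial genes such as Cldn6 was set in large part by these rules. Pax9 had a UMI in a minority of members.

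Among 21 foregut transcription factor genes, 20 had at least 10 UMIs over members and the rest of TKO, and 11 of these stood at least 2-fold higher in the members, against 0 at a ratio of 0.5 or less. Over all genes with as many UMIs, 5.75% stood at least 2-fold higher and 11.8% at 0.5 or less. The median log2 ratio of the list was 1.20, against -0.05 over all genes. Summed over the list, the level was 961 CPM in members, 916 CPM in the Sox17 gate, 973 CPM in the Gsc gate, 396 CPM in the Ttr gate and 451 CPM in the rest. The summed level of the factors that give the set its name was thus similar in the Sox17 and Gsc gates. Because the gate chose these cells from the same counts, a ratio against the rest describes them and tests nothing.

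Nkx2-3 and Pax9, both genes of the pharyngeal region, had the highest ratios among the counted genes of the list. Other pharyngeal genes ranked lower. The log2 ratio of Foxa3 (1.87) was above those of Pax1 (1.72), Eya1 (1.46) and Tbx1 (0.82). Pax9 stood at 74.4 CPM in members and 15.0 CPM in the rest, a ratio of 4.95 (4.23 to 5.78). Nkx2-3, a homeobox gene of the pharyngeal floor and gut wall, had 18.0 CPM in members and 3.53 CPM in the rest, a ratio of 5.10 (3.67 to 7.03). Eya1, a coactivator gene of the pouches, had 25.2 CPM in members and 9.20 CPM in the rest. Pax1, the partner of Pax9 in the pouches, was low in both, at 4.29 CPM in members (15 UMIs) and 1.33 CPM in the rest. Tbx1, a T-box gene of the pharyngeal region, stood at 11.4 CPM in members and 6.57 CPM in the rest, a ratio of 1.74 (1.21 to 2.46).

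The FOXA genes, Hhex and Otx2 were also higher than in the rest. The forkhead gene Foxa2, needed for foregut formation, stood at 57.8 CPM in members and 23.6 CPM in the rest, with a UMI in 125 members. Foxa1 had 32.0 CPM in members and 14.7 CPM in the rest, and Foxa3 22.9 CPM in members and 6.30 CPM in the rest. Hhex, a homeobox gene of the anterior endoderm, had 81.8 CPM in members and 29.5 CPM in the rest, and a UMI in 42.2% of members. Hhex is also a gene of endothelium, and the vascular cells had it in 56.5%. Otx2, a homeobox gene of the anterior embryo, was counted in 229 members (71.1%), with 0 to 13 UMIs and a median of 2. It stood at 224 CPM in members and 84.7 CPM in the rest. These levels were not particular to the members. Otx2 stood at 266 CPM in the Sox17 gate and 297 CPM in the Gsc gate, and Hhex at 105 and 75.8 CPM.

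Thyroid and lung genes were at or near 0. Nkx2-1, which marks thyroid and lung, had 1 UMI in the 322 members and 14 in the rest, and Pax8, a thyroid factor, 1 in members and 2 in the rest. Foxe1, another thyroid gene, had 3 UMIs in members. Sox2, a factor of the esophagus and stomach that is also pluripotent and neural, stood at 20.3 CPM in members and 37.4 CPM in the rest, a ratio of 0.543 (0.421 to 0.690). Isl1, which foregut endoderm shares with cardiac progenitors, was in 60.9% of members, at 139 CPM in members and 89.5 CPM in the rest. Nkx2-5, the cardiac and pharyngeal gene whose reporter the line carries, had 12.0 CPM in members and 14.3 CPM in the rest, with a ratio of 0.842 (0.598 to 1.16) whose interval includes 1.

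**Figure D2:**
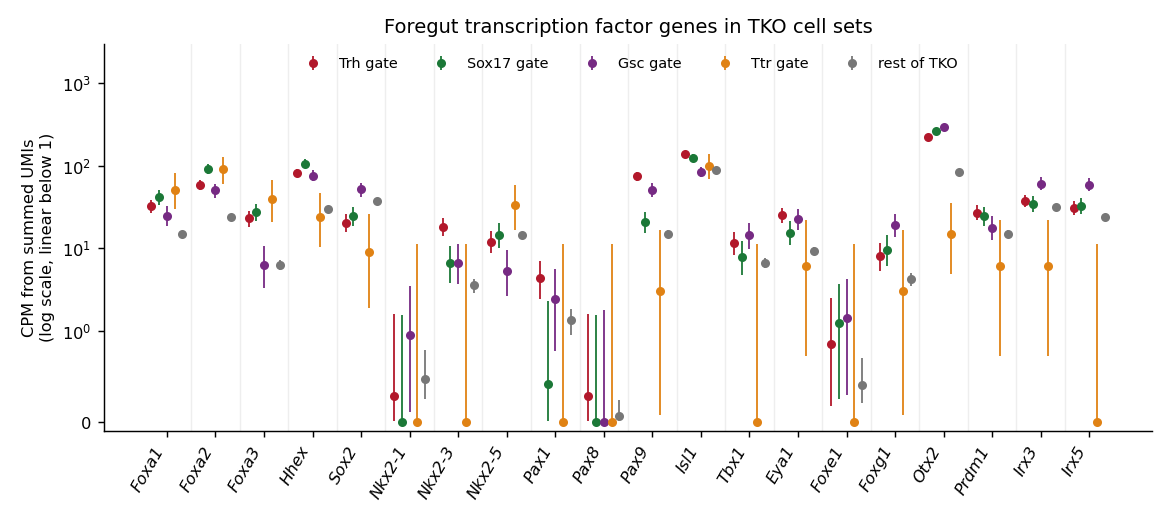
CPM from summed UMIs (vertical axis, log scale above 1 and linear below) of 20 foregut transcription factor genes in the Trh gate, Sox17 gate, Gsc gate and Ttr gate cells and in the rest of TKO, with exact 95% counting intervals as bars. Pax9 is at 74.4 CPM in the Trh gate, above the other sets; Foxa2 is at 57.8 CPM, below the Sox17 gate; Nkx2-1, Pax8 and Foxe1 are near 0 in every set.

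Epithelial genes were high in the members. Of 16 epithelial genes other than Epcam, which the gate used, 15 stood at least 2-fold higher in members than in the rest and 0 at a ratio of 0.5 or less, with a median log2 ratio of 1.54. Over all genes with at least 10 UMIs, 5.75% stood at least 2-fold higher and 11.8% at 0.5 or less. Requiring Epcam selects epithelial cells, so the epithelial count follows in part from the rule. The list, without Epcam, summed to 4016 CPM in members and 1416 CPM in the rest. It summed to 3909 CPM in the Sox17 gate, 4419 CPM in the Ttr gate and 2800 CPM in the Gsc gate, so a high level was not particular to the members. The keratin gene Krt18 had 1124 CPM in members and 383 CPM in the rest, and Krt8 701 CPM in members and 318 CPM in the rest. The claudin genes Cldn6, Cldn7 and Cldn4 had 892, 204 and 76.7 CPM in members, against 246, 63.0 and 21.5 CPM in the rest. E-cadherin (Cdh1) stood at 157 CPM in members and 52.3 CPM in the rest. Krt19 was the exception, with 31.5 CPM in members and 32.0 CPM in the rest.

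Over all 11493 genes with at least 50 UMIs in members and the rest together, 390 (3.39%) stood at least 2-fold higher in members and 866 (7.54%) at a ratio of 0.5 or less. Where the higher set reached 50 CPM or more, the largest ratios after Pax9 were those of Rabgap1l, a Rab GTPase-activating protein gene, at 65.5 CPM in members and 14.8 CPM in the rest, and Gfpt2, an enzyme gene of hexosamine synthesis, at 72.4 CPM in members and 17.0 CPM in the rest. A transporter and its partner were among the leading genes. Slc16a1, which encodes the monocarboxylate transporter MCT1, had a median of 6 UMIs per member and stood at 658 CPM in members and 161 CPM in the rest, a ratio of 4.09 (3.89 to 4.30). Emb, whose product embigin accompanies such transporters to the membrane, had a median of 28 UMIs per member and stood at 2957 CPM in members and 812 CPM in the rest, a ratio of 3.64 (3.56 to 3.72). Both were counted in over 90% of members, Emb in 321 and Slc16a1 in 296 of the 322.

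The other leading genes were Cpm, the small GTPase gene Rab15, Cldn6, the membrane protease gene Prss8, Cldn4, the actin-bundling gene Espn, Igfbp3 (an insulin-like growth factor binding protein), Cldn7 and Frzb (a secreted Wnt antagonist), at ratios of 3.21 to 3.98. With the same minimum of 50 CPM in the higher set, the lowest were genes of other lineages. They comprised the globin genes Hbb-bh1, Hba-x and Hba-a1, the cardiac genes Mef2c and Myl7, the vascular progenitor gene Kdr, the matrix gene Mfap4, the pluripotency gene Dppa5a, the kinase gene Pim2 and Gchfr. Hbb-bh1 stood at 3.43 CPM in members and 130 CPM in the rest, and Mef2c at 8.58 CPM in members and 150 CPM in the rest.

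**Figure D3:**
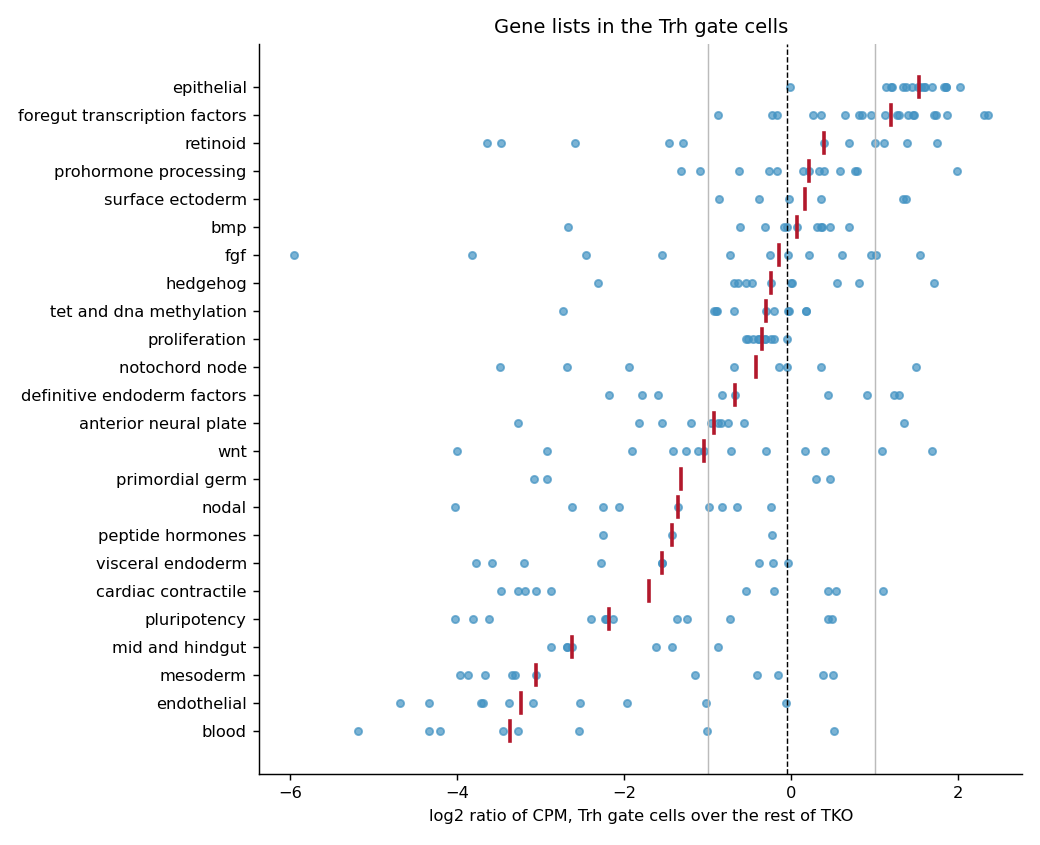
log2 ratio of CPM, Trh gate cells over the rest of TKO (horizontal axis), for the genes of 24 lists (rows); points are genes with at least 10 UMIs, without the gate genes, red bars are list medians, the dashed line is the median of all genes and grey lines mark 2-fold either way. The epithelial and foregut lists sit at medians of 1.54 and 1.20; the blood, endothelial and mesoderm lists lie at the bottom, with a fitted value drawn where the members hold 0 UMIs.

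Genes of other endoderm were mostly low in members. Of the early definitive endoderm genes, Gata6 had 42.9 CPM in members and 130 CPM in the rest, and Gata4 5.43 CPM in members and 19.2 CPM in the rest, while Cxcr4 had 12.9 CPM in members and 6.93 CPM in the rest. Mixl1, a gene of the primitive streak, had 0 UMIs in members and 19 in the rest. Of the mid- and hindgut genes, the members held 9 UMIs in all, and 8 of the 12 genes had none. Cdx2, the posterior homeobox gene, was in 4 members (1.24%) and stood at 1.43 CPM in members and 11.6 CPM in the rest, 8.09-fold lower in members (3.43 to 25.1). Of the visceral endoderm genes other than Ttr, 7 of 13 had 0 UMIs in members, among them Afp, Apob, Amn and Cubn, and the list summed to 12.3 CPM in members, 23.1 CPM in the rest and 690 CPM in the Ttr gate. Genes at 0 UMIs were set to the floor of 3 counts in the members. Where that floor did not put a gene below the rest, it was left out of the median. This left out 1 gene in each of the 3 endoderm lists and so lowered the medians given next. The median log2 ratio was -0.47 for the mid- and hindgut list and -0.79 for the visceral endoderm list. With fitted values it was -2.63 and -1.54. Counted by the same floor, 2 of 7 mid- and hindgut, 3 of 9 visceral endoderm and 2 of 9 definitive endoderm genes stood at a ratio of 0.5 or less. These totals keep the genes left out of the medians. By fitted values, 0, 0 and 2 of them stood at 2 or more. Over all genes with as many UMIs, by fitted values, 11.8% stood at 0.5 or less and 5.75% at 2 or more.

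Genes of neighbouring ectodermal and axial tissues varied. The anterior neural plate list summed to 22.3 CPM in members and 44.8 CPM in the rest, with Six3 at 4.58 CPM in members and 9.16 CPM in the rest and Pax6 at 2.00 CPM in members and 3.17 CPM in the rest. The surface ectoderm list summed to 75.8 CPM in members and 33.5 CPM in the rest. Of its 6 counted genes, 2 (Gata3 and Wnt6) stood at a ratio of 2 or more and 0 at 0.5 or less. Over all genes with as many UMIs, 5.75% stood at 2 or more and 11.8% at 0.5 or less. Wnt6 had only 2 UMIs in members and 8 in the rest, so its ratio rests on few counts. Most of that sum was Gata3, which surface ectoderm shares with pharyngeal epithelium, at 70.9 CPM in members and 27.4 CPM in the rest, with a UMI in 45.0% of members, while Krt5 and Trp63 had 0 UMIs in members and Tfap2a 4. The notochord gene T had 3 UMIs in members and 335 in the rest, and Noto 0 in members and 16 in the rest, whereas Foxj1, a gene of ciliated node cells, stood at 6.87 CPM in members and 2.47 CPM in the rest. Pluripotency genes were low, with Nanog at 2 UMIs and Tdgf1 at 3 UMIs in members and Esrrb at 0. Sall4 and Lin28a, which many early embryonic cells keep, stood at 176 and 134 CPM in members, against 130 and 95.8 CPM in the rest. With genes at 0 UMIs counted by the floor, 8 of 12 pluripotency genes, 3 of 10 anterior neural plate genes, 1 of 8 notochord genes and 1 of 4 germ cell genes stood at a ratio of 0.5 or less. Over all genes with as many UMIs this share was 11.8%, so the notochord count was near the background.

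Markers of mesoderm, heart, vessel and blood were low in sum but not absent. The blood list summed to 17.7 CPM in members and 290 CPM in the rest, and Gata1, a factor of red cell precursors, had 0 UMIs in members and 41 in the rest. Klf1 had 4 UMIs in members and Tal1 1, while Runx1, with 16 UMIs, stood at 4.58 CPM in members and 3.30 CPM in the rest. Tyrobp and Fcer1g had 0 UMIs in members but also only 1 and 5 in the rest. The endothelial list summed to 67.5 CPM in members, 199 CPM in the rest and 3019 CPM in the vascular cells, and Cdh5, Tek, Tie1, Cldn5 and Emcn were at 0 in members. The contractile list summed to 164 CPM in members and 492 CPM in the rest. Within it Tnni1 had 15.4 CPM in members and 142 CPM in the rest, but Myl3 had 33.5 CPM in members and 15.6 CPM in the rest and Tnnc1 69.5 CPM in members and 48.0 CPM in the rest. The mesoderm list summed to 118 CPM in members and 276 CPM in the rest, with only Meox1 of 11 genes at 0 in members. Foxc1, a forkhead gene of head and somite mesoderm, stood at 47.8 CPM in members and 33.9 CPM in the rest, and Alx1 at 25.2 CPM in members and 33.5 CPM in the rest. At a ratio of 0.5 or less, with the same floor, stood 6 of 8 blood, 7 of 10 endothelial, 5 of 10 contractile and 6 of 11 mesoderm genes, with median log2 ratios of -1.42, -1.70 and -1.15 in the last 3 lists and -2.996 in the blood list. Over all genes with as many UMIs, by fitted values, 11.8% stood at 0.5 or less.

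These mesoderm UMIs were spread over a minority of members. A UMI of Hand1, Hand2, Twist1, Prrx1 or Alx1 was absent from 220 members (68.3%, 62.9 to 73.4), 79 held UMIs of 1 of these genes, and 23 (7.14%) of at least 2. The 23 were deeper, with a median of 15258 UMIs, against 9744 in the 220. UMIs of at least 3 contractile genes occurred in 18 members (5.59%, median 15226 UMIs). In the 220 members with none, Pax9 stood at 74.1 CPM, Cldn6 at 891 and Foxc1 at 43.3 CPM, so these levels did not rest on the members with mesoderm UMIs. In the 23 they stood at 47.7 CPM for Pax9, 692 for Cldn6 and 47.7 for Foxc1. Without the members that held mesoderm UMIs, the median log2 ratio of the foregut list over the rest was 0.96, against 1.20 with them. That of the epithelial list was 1.57, against 1.54. This comparison was added after the data had been seen. Of the 155 TKO cells with the top 5% of doublet scores, 14 were members. The part of doublets or free RNA in the mesoderm UMIs was not tested.

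Beside Trh itself, most genes of neuroendocrine hormone processing and secretory granules were at or near 0 in the members at this depth. Mature TRH is cut from its precursor by the convertases PCSK1 and PCSK2, trimmed by carboxypeptidase E and amidated by PAM. Pcsk1 had 0 UMIs in the 322 members and 4 in the rest, Pcsk2 1 in members and 15 in the rest, and Cpe 10 in members and 224 in the rest, which put Cpe at 2.86 CPM in members and 7.46 CPM in the rest, 2.61-fold lower (1.39 to 5.52). Of the granule genes, Chga had 4 UMIs in members, Chgb and Scg5 1 each, and Scg2 and Scg3 0.

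The enzymes of the general secretory route were present. Furin, a convertase of most cells, stood at 38.3 CPM in members and 25.6 CPM in the rest, a ratio of 1.50 (1.24 to 1.80). Cpd, a carboxypeptidase of the Golgi, had 36.0 CPM in members and 20.9 CPM in the rest, and Pam 27.5 CPM in members and 16.3 CPM in the rest, a ratio of 1.69 (1.34 to 2.11). Pam had a UMI in 81 members (25.2%), against 14.2% of the other TKO cells and 30.4% of the 23 vascular cells, so its share in members lay within the interval of the vascular cells and is not read as a difference. Cpm, at 559.5 CPM in members and 141 CPM in the rest, was 1 of 13 counted genes of this list at a ratio of 2 or more, and 2 of 13, Cpe and Scg5, stood at 0.5 or less. Both counts were near the shares of all genes, 5.75% and 11.8%. Of the other peptide hormone genes, Tac2, Gcg, Ghrl, Cck, Gast and Npy had 0 UMIs in members, Sst and Nts 1 each, and Pyy 8 UMIs in 3 members. The TRH receptor genes Trhr and Trhr2 and the TRH-degrading peptidase gene Trhde had 0 UMIs in members and in the rest.

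**Figure D4:**
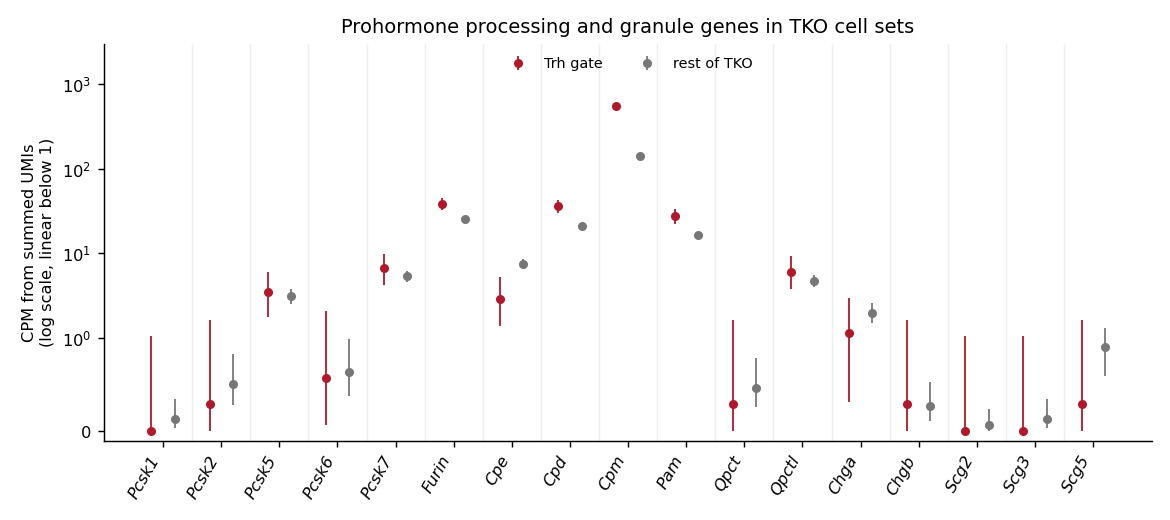
CPM from summed UMIs (vertical axis, log scale above 1 and linear below) of 17 prohormone processing and secretory granule genes in the Trh gate cells and the rest of TKO, with exact 95% counting intervals. Cpm stands at 559.5 CPM in the Trh gate; Pcsk1, Scg2 and Scg3 are at 0 there.

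Few genes separated the members from the Sox17 gate cells at the 2-fold limit. Of 7894 genes with at least 50 UMIs over both sets, 38 (0.481%) stood at least 2-fold higher in members and 81 (1.03%) at a ratio of 0.5 or less. Cldn6 stood at 892 CPM in members and 890.5 CPM in the Sox17 gate, a ratio of 1.00 (0.948 to 1.06), and Emb at 2957 CPM in members and 3126 CPM in the Sox17 gate. Pax9 led the genes higher in members, at 74.4 CPM in members and 20.7 CPM in the Sox17 gate, a ratio of 3.60 (2.65 to 4.97). After thinning, Pax9 was in 21.9% of members (17.3 to 26.9) and 5.32% of Sox17 gate cells (2.58 to 9.56), intervals that do not overlap. Igfbp3 (50.6 CPM in members and 22.7 CPM in the Sox17 gate), the cartilage collagen gene Col2a1 (81.5 CPM in members and 38.9 CPM in the Sox17 gate) and the homeobox gene Meis2 (57.5 CPM in members and 28.1 CPM in the Sox17 gate) also stood higher, at ratios of 2.04 to 2.23.

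With the same minimum of 50 CPM, lowest in members against the Sox17 gate were Cer1, Fxyd2, Fgf5, Dkk1 and Ctsc. Cer1, a secreted antagonist of Nodal and BMP, stood at 4.00 CPM in members and 54.2 CPM in the Sox17 gate, 13.5-fold lower (7.78 to 25.4). Fxyd2, a subunit gene of the sodium pump, had 14.3 CPM in members and 96.0 CPM in the Sox17 gate, Fgf5 14.0 CPM in members and 79.4 CPM in the Sox17 gate, the Wnt antagonist gene Dkk1 21.5 CPM in members and 103 CPM in the Sox17 gate and the protease gene Ctsc 24.3 CPM in members and 92.2 CPM in the Sox17 gate. The retinoic acid degrading enzyme gene Cyp26a1 was 3.21-fold lower (2.77 to 3.72), at 77.2 CPM in members and 248 CPM in the Sox17 gate. Foxa2, at 57.8 CPM in members and 91.8 CPM in the Sox17 gate, had a ratio of 0.629 (0.518 to 0.765), while Foxa1 and Foxa3 had ratios of 0.775 and 0.838 with intervals that include 1. The mesoderm genes went the other way, with Foxc1 at 47.8 CPM in members and 21.9 CPM in the Sox17 gate, Alx1 at 25.2 CPM in members and 7.86 CPM in the Sox17 gate and Prrx1 at 13.2 CPM in members and 2.90 CPM in the Sox17 gate. Without the members that held mesoderm UMIs, 20 genes stood at least 2-fold higher than in the Sox17 gate, a comparison added after the data had been seen.

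The Gsc gate cells were nearer to the members in Pax9 and differed in other genes. Of 7698 genes, 81 (1.05%) stood at least 2-fold higher in members and 53 (0.688%) at a ratio of 0.5 or less. Pax9 stood at 74.4 CPM in members and 50.6 CPM in the Gsc gate, a ratio of 1.47 (1.17 to 1.86). Apela, which encodes a peptide ligand of the apelin receptor, led the higher genes among those with at least 50 CPM in the higher set. It stood at 285 CPM in members and 55.8 CPM in the Gsc gate, a ratio of 5.10 (4.21 to 6.23). Spink1, a protease inhibitor gene, had 434.5 CPM in members and 143 CPM in the Gsc gate, Ifitm3 68.9 CPM in members and 26.2 CPM in the Gsc gate, Rabgap1l 65.5 CPM in members and 27.2 CPM in the Gsc gate and Ifitm1 269 CPM in members and 114 CPM in the Gsc gate. Foxa3 stood at 22.9 CPM in members and 6.20 CPM in the Gsc gate, a ratio of 3.69 (2.04 to 7.23). With the same minimum, Cer1 was lowest in members, at 4.00 CPM in members and 61.5 CPM in the Gsc gate. Pim2, Fgf5, Dkk1 and the metallothionein gene Mt2 followed. T lay under that minimum and had a lower ratio than Cer1, with 3 UMIs in members and 60 in the Gsc gate.

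The Ttr gate cells, 26 in number, stood farther off. Of 6670 genes, 333 (4.99%) stood at least 2-fold higher in members and 356 (5.34%) at a ratio of 0.5 or less. Without the members that held mesoderm UMIs, 217 stood at least 2-fold higher. Otx2 had 224 CPM in members and 15.0 CPM in the Ttr gate (5 UMIs), a ratio of 15.0 (6.38 to 46.2). Pax9 had 260 UMIs in members and 1 in the Ttr gate, a ratio of 24.8 (4.41 to 983). Cubn and Amn, the receptor pair for uptake in visceral endoderm, had 0 UMIs in members and 37 and 28 in the Ttr gate, at least 129-fold and 97.9-fold lower with the floor of 3 counts over the members. Apob and Srgn also had 0 UMIs in members, and Dpp4 1. Cpm, Emb and Slc16a1 were close in the sets, with Emb at 2957 CPM in members and 2829 CPM in the Ttr gate, a ratio of 1.05 (0.978 to 1.12). Foxa2 stood at 57.8 CPM in members and 90.0 CPM in the Ttr gate.

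DNA methylation genes were close to or below the rest of TKO. Of 11 genes, 0 stood at a ratio of 2 or more, beside 5.75% of all genes with at least 10 UMIs. Dnmt3b, which sets new DNA methylation in the early embryo, stood at 99.5 CPM in members, 186 CPM in the rest, 311 CPM in the Sox17 gate and 252 CPM in the Gsc gate. The share of cells with a Dnmt3b UMI was 50.6% in members and 48.7% in the rest, and after thinning to 4000 UMIs 32.5% in members and 30.3% in the rest, so the shares do not show the lower level seen in the sums. In the Sox17 gate the thinned share was 53.2%. In the summed counts, Dnmt3b was 3.12-fold lower (2.74 to 3.55) in members than in the Sox17 gate. Dnmt3a had 24.3 CPM in members and 46.4 CPM in the rest, and Dnmt3l 0 UMIs in members and 28 in the rest. The maintenance genes Dnmt1 (54.3 CPM in members and 55.4 CPM in the rest) and Uhrf1 (53.2 CPM in members and 65.5 CPM in the rest) and the base excision gene Tdg (86.7 CPM in members and 76.8 CPM in the rest) were closer.

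Several genes differed among the members with their Trh count. In cells thinned to 4000 UMIs, grouped by their unthinned Trh count from 5 to 9 (71 cells), 10 to 19 (95), 20 to 39 (84) and 40 or more (52), Emb stood at 2352, 3000, 3226 and 4125 CPM. Slc16a1 stood at 387, 618, 640 and 923 CPM, and Krt18 at 1025, 982, 1161 and 1654 CPM. These genes were higher in the highest Trh range than in the lowest, with intervals that do not overlap, as for Emb (3854 to 4411 against 2177 to 2537). Otx2 stood at 137, 261, 253 and 274 CPM, so its step lay between the lowest range and the others. Pax9 stood at 84.5, 65.8, 74.4 and 67.3 CPM, with overlapping intervals in all 4 ranges. Foxc1 went the other way, at 63.4, 60.5, 41.7 and 14.4 CPM (3 UMIs in the last), and Igfbp5 at 370, 376, 318 and 130 CPM. The median UMIs before thinning were 10511, 9706, 10835 and 11670.5 in the 4 ranges.

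**Figure D5:**
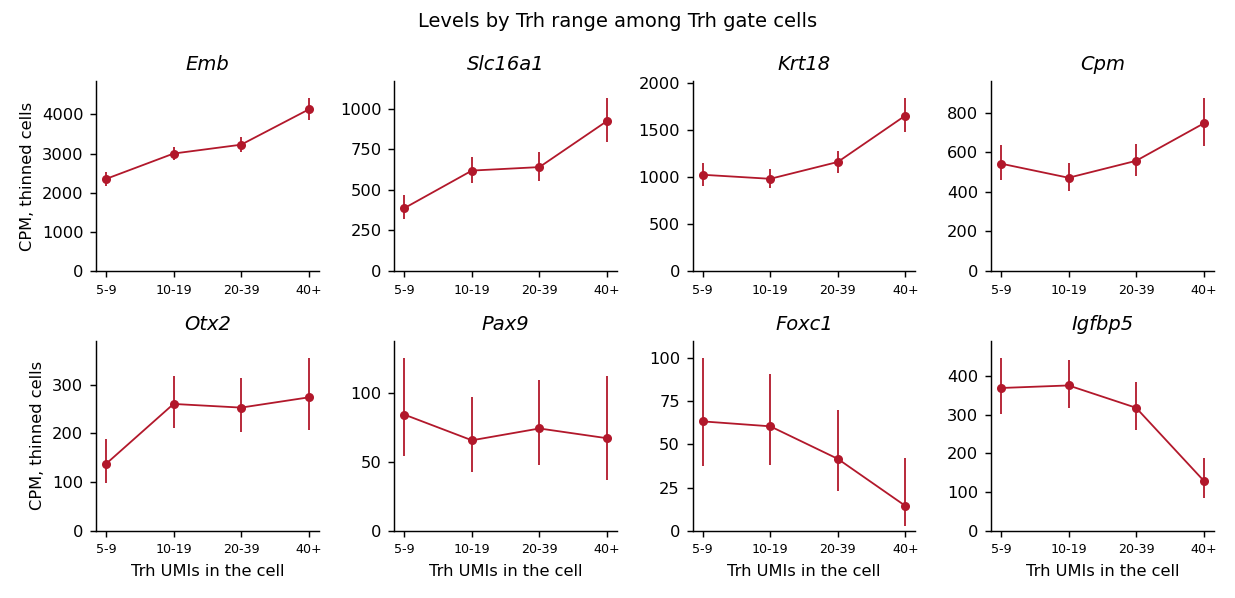
CPM in cells thinned to 4000 UMIs (vertical axes, from 0) of 8 genes by the Trh UMIs of the member before thinning (horizontal axes, low to high), with exact 95% counting intervals as bars. Emb, Slc16a1 and Krt18 are highest at 40 or more Trh UMIs, Pax9 is level within its intervals, and Foxc1 and Igfbp5 are lowest there.

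The factors of the foregut list divided the members in different ways. After thinning, Otx2 had a UMI in 142 of 302 members, Isl1 in 113, Hhex in 79, Pax9 in 66, Pyy in 3 and Nkx2-1 in 0. Members with an Otx2 UMI had more Cyp26a1, at 123 CPM, against 46.9 CPM in those without, a ratio of 2.63 (1.69 to 4.18), more Hhex (116 CPM in those with it and 59.4 CPM in those without) and more Foxa2 (79.2 CPM in those with it and 45.3 CPM in those without). They had less Fgf8, at 28.2 CPM, against 59.4 CPM in those without, 2.11-fold lower (1.15 to 4.05). Members with a Pax9 UMI had more Foxc1 (83.3 CPM in those with it and 38.1 CPM in those without, a ratio of 2.19, 1.22 to 3.82) and Socs2, a cytokine signalling inhibitor gene (523 CPM in those with it and 335 CPM in those without), and less Cyp26a1 (41.7 CPM in those with it and 94.3 CPM in those without). Members with an Isl1 UMI had more Crabp2, a retinoic acid binding protein gene (46.5 CPM in those with it and 15.9 CPM in those without), and less Eya1 (13.3 CPM in those with it and 35.7 CPM in those without, from 6 UMIs in those with it and 27 in those without). Members with a Hhex UMI had more Alx1 (47.5 CPM in those with it and 11.2 CPM in those without, from 15 UMIs in those with it and 10 in those without). Otx2 and Pax9 showed no clear relation, with Pax9 at 63.4 CPM in members with Otx2 and 81.2 CPM in those without (ratio 0.780, 0.495 to 1.22). A gene with no UMI in a thinned cell may still be transcribed there, so these groups are not cell types.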

How the data were processed

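The deposited tables hold raw UMI counts per gene and cell, not normalized, for 1 TKO and 1 WT library of day 5; Seurat 3 is named in the submitters' processing notes without its role, and no aligner or library chemistry is named in the sources read here. Gene rows numbered 27998 in each table, and 116 row names differ between the tables only in their suffix. Counts were summed over the cells of a set and scaled to CPM. Ratios compare sums within the TKO table, with exact binomial 95% intervals; calls by fold (at least 2 or at most 0.5) used a prior count of 0.5 UMI and genes with at least 50 UMIs over both sets, or 10 for the gene lists. Shares have exact Clopper-Pearson intervals, and cells were thinned to 4000 or 6000 UMIs without replacement (20 members and 170 other TKO cells were shallower than 4000). Where a set held 0 UMIs, a bound used a floor of 3 counts over the set. PCR copies are collapsed by UMIs, and intervals and floors cover counting error only. Python 3.11.15 with numpy 2.4.6, scipy 1.17.1 and scanpy 1.11.5 (Scrublet, expected rate 0.06) was used, and the ratio code was tested on simulated data.

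The members, the gene lists and the tests were chosen with earlier results of these data known. Genes named in the text were the 15 highest and 10 lowest ratios over the rest of TKO and the 5 highest and 5 lowest against each other gate, all with at least 50 CPM in the higher set, without mitochondrial, ribosomal, Gm and Rik genes; the gate and marker genes; all members of the foregut, hormone, processing, TRH reception and Tet lists; and the most abundant members of the other lists. Genes named beyond this rule, or with values from a split of the members, were chosen after their values were seen. Some genes under this rule are not reported here. The WT library was only counted with the gate. Alternatives changed the Trh, Epcam, mitochondrial and gene minimums, depth, doublet scores, averaging and the members or other cells included.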

Additional observations from a re-analysis of the deposited data

How the results depend on the processing

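The Trh gate share of TKO cells was 11.9% with at least 3 UMIs of Trh, 7.41% with at least 10 and 11.9% after thinning with at least 2 (11.9388); the WT share lay between 0.0228% and 0.0498% in all 6 alternatives. Counts of genes followed the minimum of UMIs: with at least 10 and at least 200 UMIs, 804 and 189 genes stood 2-fold higher than in the rest of TKO, 1656 and 380 lower, 307 and 6 higher than in the Sox17 gate, 1003 and 51 higher than in the Ttr gate, and 364 and 15 higher than in the Gsc gate. Without members that held mesoderm UMIs (added after the data were seen), 20 genes stood higher than in the Sox17 gate and 217 higher than in the Ttr gate; with the mean over cells, 58 stood higher than in the Sox17 gate. Without the other cells that held 5 or more Trh UMIs (also added), the epithelial median was 1.86. Shares of members with a UMI at 4000 and 6000 UMIs were 73.2% and 83.9% for Cpm, 91.7% and 97.5% for Cldn6, and 21.9% and 30.4% for Pax9. Of 728 values for the 91 named genes at 2-fold or more against the rest, 82 fell outside the counting interval of the reported ratio and 0 changed direction. No paired analysis was possible because each genotype had 1 library. Depth limits the rare genes: 0 UMIs over the 322 members allows up to 3 counts, or 0.858 CPM.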

Other observations

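Signalling genes not described above also differed between the members and the rest of TKO. Of 12 FGF genes, 2 stood at a ratio of 2 or more and 4 at 0.5 or less, or 2 with genes at 0 UMIs counted by the floor. Over all genes with as many UMIs, 5.75% stood at 2 or more and 11.8% at 0.5 or less. Of the feedback and target genes, Spry1 stood at 66.1 CPM in members and 22.6 CPM in the rest (ratio 2.92, 2.50 to 3.40), Etv5 at 39.2 CPM in members and 19.4 CPM in the rest and Dusp6 at 70.9 CPM in members and 36.7 CPM in the rest. Spry2 (46.3 CPM in members and 40.1 CPM in the rest), Etv4 (3.72 CPM in members and 3.93 CPM in the rest) and Spry4 (2.57 CPM in members and 3.23 CPM in the rest) were closer. The ligand gene Fgf8 stood at 47.5 CPM in members and 31.3 CPM in the rest, while Fgf3 had 0 UMIs in members and 265 in the rest. Among 13 Wnt genes, 2 stood at a ratio of 2 or more and 7 at 0.5 or less, beside the same 5.75% and 11.8% of all genes. The antagonist Frzb had 114 CPM in members and 35.7 CPM in the rest, the antagonist Sfrp1 41.8 CPM in members and 157 CPM in the rest, the target Axin2 3.43 CPM in members and 7.70 CPM in the rest, and the ligand Wnt3 0 UMIs in members and 68 in the rest. The target Lgr5 was higher in members (8.58 CPM in members and 4.10 CPM in the rest), and Sp5 was closer (11.2 CPM in members and 8.53 CPM in the rest). Nkd1 (5.43 CPM in members and 13.3 CPM in the rest) and Lef1 (14.6 CPM in members and 24.3 CPM in the rest) were lower. The Nodal list summed to 27.2 CPM in members, 103 CPM in the rest, 120 CPM in the Sox17 gate and 129 CPM in the Gsc gate. The co-receptor gene Cfc1 stood at 13.4 CPM in members and 56.6 CPM in the rest.

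In the retinoic acid pathway the members had more of the receptor gene Rarb, at 49.8 CPM in members and 23.0 CPM in the rest (ratio 2.16, 1.82 to 2.56). The synthesis gene Aldh1a2 had 0 UMIs in members and 53 in the rest, and Crabp2 stood at 26.3 CPM in members and 73.1 CPM in the rest. Of the hedgehog genes, the endodermal ligand Ihh had 15.2 CPM in members and 8.70 CPM in the rest, the target Gli1 0.858 CPM in members (3 UMIs) and 4.97 CPM in the rest, the target Hhip 4.29 CPM in members and 1.33 CPM in the rest, and the target Ptch1 49.5 CPM in members and 58.5 CPM in the rest. The BMP target Id1 stood at 975 CPM in members and 753 CPM in the rest, and the ligand Bmp4 at 7.15 CPM in members and 46.5 CPM in the rest. None of the 10 proliferation genes reached a ratio of 2 or 0.5, beside 5.75% and 11.8% of all genes with at least 10 UMIs. With so few genes, this count is not read as a result about them. They summed to 818 CPM in members and 1026 CPM in the rest.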
